A study of Mus musculus with 9 samples.

Results

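The D cyclins (Ccnd1, Ccnd2, Ccnd3), the Myc family genes Mycn and Myc, and the cell cycle inhibitors Cdkn1a, Cdkn1b, Cdkn1c, Cdkn2a and Cdkn2b were followed in cultured gut mesenchyme given hedgehog ligand. These 10 genes were read by 24 of the 45101 probe sets, namely every probe set to which the platform annotation gives 1 of these symbols and no other. Small intestinal mesenchyme came from E18.5 embryos of C57Bl/6J mice, was separated from its epithelium, and was kept for 48 h on a collagen matrix in DMEM with fetal bovine serum. It then received Sonic hedgehog (Shh, 3 arrays), Indian hedgehog (Ihh, 3 arrays) or Vehicle (3 arrays) for 24 h. The labels name no mutation or transgene in any group, and the ligand dose was not given in the sources used here. The wells of each treatment, 6 in all, were pooled at random into 3 samples, so the p-values measure the spread between pools of wells and not between litters.

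Passage out of G1 depends on D cyclins, which bind Cdk4 and Cdk6 and start the phosphorylation of the retinoblastoma protein, and on Myc proteins, which drive growth and proliferation genes. Inhibitors of the Cip/Kip family (Cdkn1a, Cdkn1b, Cdkn1c) bind cyclin and kinase together, whereas those of the INK4 family (Cdkn2a, Cdkn2b) bind Cdk4 and Cdk6 alone. Ccnd1, Ccnd2 and Mycn are known as hedgehog-responsive genes in other tissues, Ccnd1 and Mycn above all in cerebellar granule cell precursors. In the fetal gut the epithelium makes Shh and Ihh, and the mesenchyme receives them.

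The ligands acted on these cultures. Ptch1, the hedgehog receptor and a direct target of the pathway, rose by 1.48 ± 0.14 on the log2 scale over both ligands (SE; limma, adjusted p = 0.000622), with Gli1 up by 0.89 (adjusted p = 0.0443) and Hhip up by 0.58 (adjusted p = 0.0243). The 12 listed mesenchymal markers lay above the array medians (5.87 to 5.92) on all arrays, for example Myh11 at 8.47 to 9.24 and Col3a1 at 13.1 to 13.4. Epithelial markers were not gone: Krt8 had 9.62, 7.60 and 10.6 on the Shh arrays, 10.3, 10.2 and 9.06 on the Ihh arrays and 10.6, 9.35 and 7.54 on the Vehicle arrays. In the mean of the 9 listed epithelial markers Shh 2 (-0.99 relative to Vehicle) and Vehicle 3 (-0.98) were the 2 lowest arrays. Results were therefore also computed without them. Epcam, at 7.72 to 7.98 and highest on Shh 2, and Cdx1, at 3.97 to 4.38, did not follow this course. The mean of the 5 mesothelial markers was also lowest on Shh 2 and Vehicle 3, at -0.47 on each. All values are log2 expression as deposited, and levels of different probe sets are not set against each other.

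One of the 10 genes, the inhibitor Cdkn1c, rose with ligand. It was called higher for both ligands together and for Shh alone, and neither a D cyclin nor a Myc gene was called in any comparison. A gene was called at a limma p under 0.05 after Benjamini-Hochberg adjustment over all 18193 genes. For both ligands against Vehicle 1 of 10 members was called, beside 274 of all genes (1.51%), 79 of them higher (0.434%). Cdkn1b and Cdkn1c had an unadjusted limma p under 0.05 in that comparison, as had 13.7% of all genes. For Shh against Vehicle 1 of 10 members was called, beside 314 of all genes (1.73%; higher, 0.489%), and the same 2 members had an unadjusted limma p under 0.05, beside 18.8% of all genes. For Ihh against Vehicle 0 of 10 members were called, beside 118 of all genes (0.649%), and Cdkn1c had an unadjusted limma p under 0.05, beside 9.19% of all genes. For Shh against Ihh 0 of 10 were called, beside 2 of all genes (0.011%), and 3 members, Ccnd1, Mycn and Cdkn1b, had an unadjusted limma p under 0.05, beside 13.1% of all genes. The median difference of the 10 genes for both ligands against Vehicle was -0.02, beside 0.0012 over all genes, and their median absolute difference was 0.05, beside 0.06 over all genes.

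**Figure D1:**
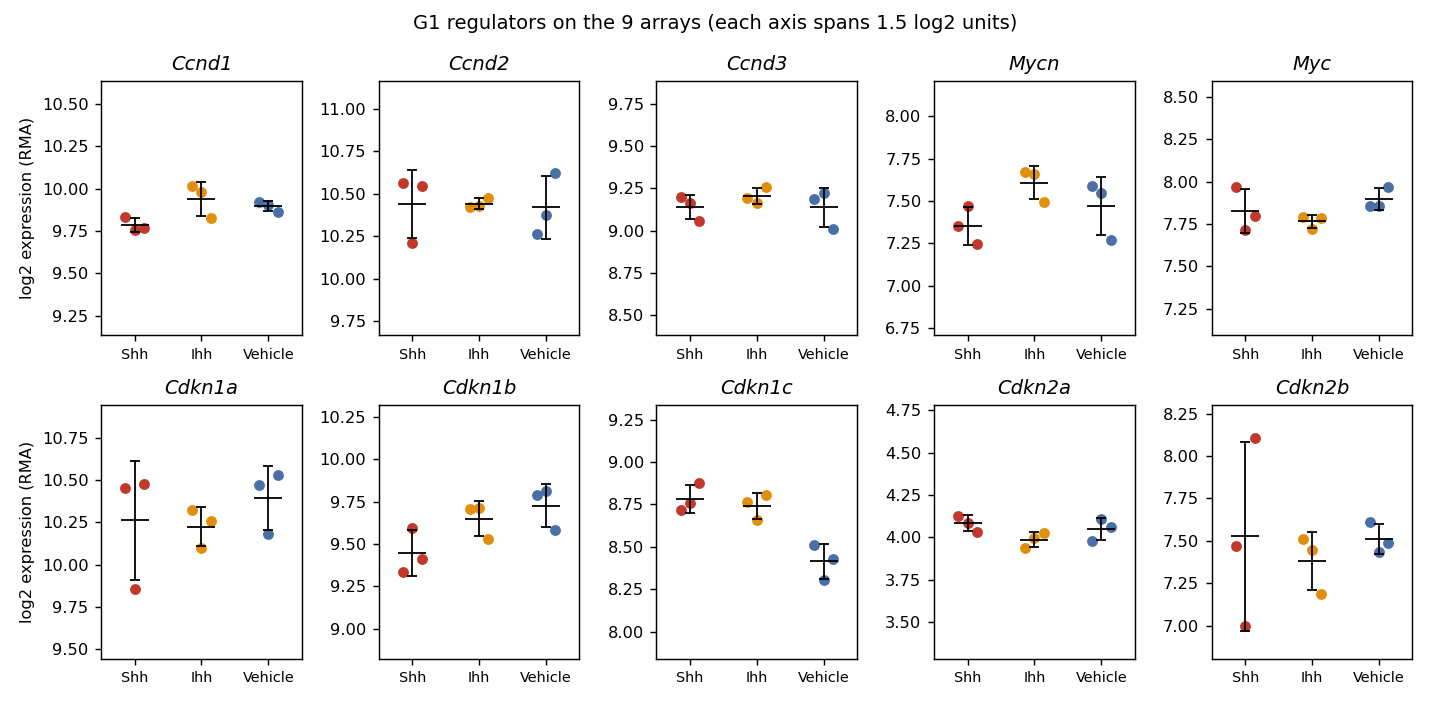
Log2 expression (RMA) of the 10 G1 regulators on each of the 9 arrays, by group (Shh, Ihh, Vehicle); points are arrays, long bars are means and whiskers are SD (n = 3), and each vertical axis spans the same log2 range. Cdkn1c is the gene whose Shh and Ihh arrays (8.66 to 8.88) all lie above its Vehicle arrays (8.30 to 8.51), and Cdkn2b shows the widest spread, on the Shh arrays.

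Cdkn1c encodes a Cip/Kip inhibitor that restrains growth of the embryo and is expressed from the maternal allele. Its single probe set, 1417649_at, had 8.72, 8.76 and 8.88 on the Shh arrays, 8.76, 8.66 and 8.81 on the Ihh arrays and 8.51, 8.30 and 8.43 on the Vehicle arrays. Every ligand array lay above every Vehicle array, a separation found for 6.47% of all genes and for none of the other 9 members. The group means were 8.78 ± 0.08 with Shh, 8.74 ± 0.08 with Ihh and 8.41 ± 0.10 with Vehicle (SD, n = 3 each).

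Over both ligands Cdkn1c was higher than in Vehicle by 0.35 ± 0.06 on the log2 scale (SE), a 1.27-fold difference with a 95% interval of 0.21 to 0.49 (limma, adjusted p = 0.0297). With Shh the rise was 0.37 ± 0.07, or 1.29-fold (limma, adjusted p = 0.0392). With Ihh the difference of 0.33 ± 0.07, or 1.26-fold, missed the threshold (limma, adjusted p = 0.103). The difference between Shh and Ihh was 0.04, with a 95% interval of -0.12 to 0.20 (limma, adjusted p = 0.826), so an effect of unequal size up to those bounds was not excluded. Beside the 1.48 of Ptch1, the Cdkn1c difference was small on the same log2 scale.

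The Cdkn1c call depended on which pools were included. For both ligands it held without Shh 1, without Ihh 2 and without Vehicle 3. It ended without Shh 2, Shh 3, Ihh 1, Ihh 3, Vehicle 1 or Vehicle 2, with adjusted p between 0.0509 and 0.146, while the difference stayed between 0.29 and 0.40 over all 9 omissions. Without both Shh 2 and Vehicle 3 it was 0.36 (limma, adjusted p = 0.0798). The Shh call held only without Ihh 3 or without Vehicle 3, and the difference lay between 0.31 and 0.42 over the 9 omissions, with adjusted p up to 0.150.

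Some other measures also differed between the ligand and Vehicle arrays. Of the 11 listed markers of macrophages and other immune cells 10 were measured. Over both ligands 2 of them were called higher and 4 lower, beside 1.51% of all genes called. The mean level of the 10 markers relative to Vehicle was -0.30 to -0.23 on the ligand arrays and -0.07 to 0.10 on the Vehicle arrays. The 4 called lower were Cd14 at -1.66 (limma, adjusted p = 3.09e-05), Adgre1 at -1.04, Itgam at -0.91 and Lyz2 at -0.26. The 2 called higher were Cx3cr1 at 0.87 (limma, adjusted p = 0.0384) and Laptm5 at 0.37 (adjusted p = 0.0347). The lower mean of the list was therefore not a fall of all its markers. Csf1r was between 12.00 and 12.35 on all arrays and was not called. The difference between the 3' and 5' Gapdh control probe sets, a sign of RNA quality, was -0.15, -0.16 and -0.18 on the Shh arrays, -0.04, -0.17 and -0.19 on the Ihh arrays and 0.03, -0.08 and -0.05 on the Vehicle arrays. Ihh 1 lay within the Vehicle range of that measure and the other ligand arrays lay below it. The same difference for b-Actin was 0.15, 0.17 and 0.14 on the Shh arrays and 0.18, 0.16 and 0.12 on the Ihh arrays. On the Vehicle arrays it was 0.28, 0.15 and 0.19, so Vehicle 2 lay within the range of the ligand arrays. The part of immune markers and of RNA quality in the Cdkn1c result was not tested. In these bulk cultures fewer cells of a type and less RNA per cell cannot be told apart.

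**Figure D2:**
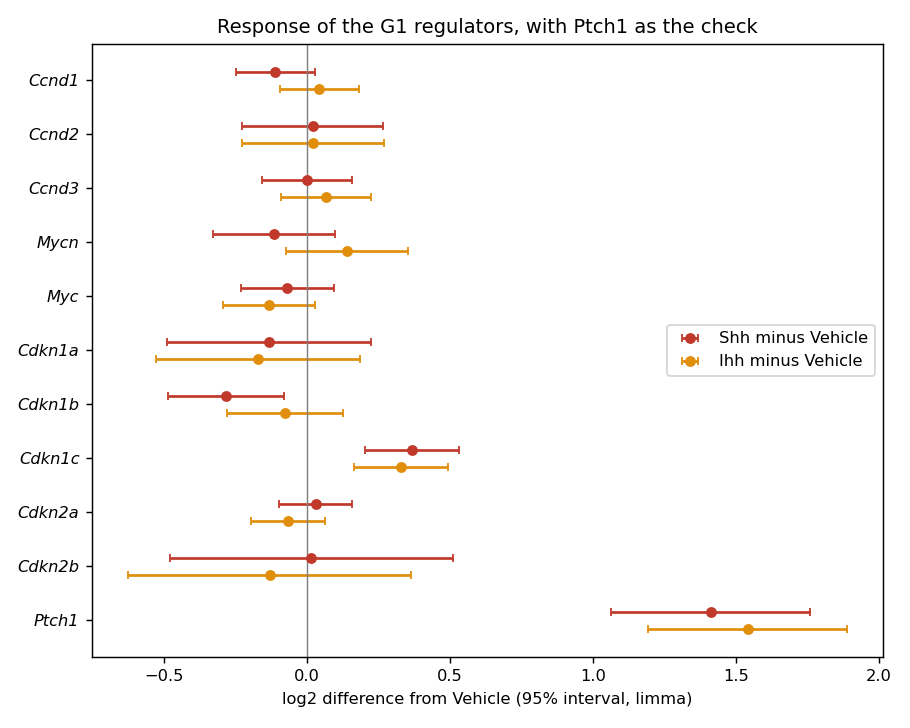
Log2 difference from Vehicle of each of the 10 genes and of Ptch1 (limma estimate, with its 95% interval), for Shh (red, upper of each pair) and Ihh (orange, lower of each pair). Both Cdkn1c intervals lie above 0, at 0.37 with Shh and 0.33 with Ihh, far below Ptch1 at 1.41 with Shh and 1.54 with Ihh, and Cdkn1b lies below 0 with Shh at -0.28.

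Among the D cyclins none was called. Ccnd1 (cyclin D1, which growth factors induce; probe set 1417420_at) had 9.83, 9.76 and 9.77 on the Shh arrays, 10.01, 9.98 and 9.83 on the Ihh arrays and 9.92, 9.90 and 9.86 on the Vehicle arrays. The Shh arrays all lay below the Vehicle arrays, a separation seen for 20.9% of all genes in that comparison, and the Ihh arrays overlapped the Vehicle arrays. The Shh difference from Vehicle was -0.11, with a 95% interval of -0.25 to 0.03 (limma, adjusted p = 0.373), and the Ihh difference was 0.04, with an interval of -0.09 to 0.18 (adjusted p = 0.914). Shh was below Ihh by a difference of -0.15, with an interval of -0.29 to -0.02, which did not pass (limma, unadjusted p = 0.0325, adjusted p = 0.354). The 3 Ccnd1 probe sets gave differences of -0.10 to 0.08 over both ligands. For Shh, 1417419_at went the other way, at 0.12 against Vehicle and 0.08 against Ihh. The probe set 1448698_at gave -0.13 and -0.06.

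Ccnd2, encoding cyclin D2 and read by 7 probe sets, showed pools that differed more than the treatments did. Its highest probe set, 1416122_at, had 10.56, 10.21 and 10.55 on the Shh arrays, 10.42, 10.43 and 10.48 on the Ihh arrays and 10.26, 10.38 and 10.62 on the Vehicle arrays. All 3 groups overlapped, and the difference over both ligands was 0.02, with a 95% interval of -0.19 to 0.24 (limma, adjusted p = 0.956). The probe set 1416124_at stood apart from the others of Ccnd2, with 6.45, 6.54 and 6.38 on the Shh arrays, 6.12, 6.53 and 6.51 on the Ihh arrays and 5.84, 6.24 and 6.13 on the Vehicle arrays. Its difference of 0.35 had an unadjusted limma p of 0.0090 and an adjusted p over all probe sets of 0.201, and the remaining 6 Ccnd2 probe sets lay between -0.07 and 0.08.

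Ccnd3 encodes cyclin D3, a D cyclin best known from lymphocytes. Its highest probe set, 1415907_at, had 9.20, 9.16 and 9.06 on the Shh arrays, 9.19, 9.16 and 9.26 on the Ihh arrays and 9.19, 9.22 and 9.01 on the Vehicle arrays. The groups overlapped, and the difference over both ligands was 0.03, with a 95% interval of -0.10 to 0.17 (limma, adjusted p = 0.876). All 3 Ccnd3 probe sets gave differences above 0, of which 1444323_at had the largest at 0.21 (limma, unadjusted p = 0.0181, adjusted p over all probe sets = 0.265). The 250 bases before 1 of the Ccnd3 starts (RefSeq, GRCm38.p6, chr17:47593217-47593466, plus strand) are shown because they hold the core of the GLI binding motif, through which hedgehog targets are activated. The capitals mark that core, CCACCCA read on the opposite strand, 234 bases before that start.
Ccnd3: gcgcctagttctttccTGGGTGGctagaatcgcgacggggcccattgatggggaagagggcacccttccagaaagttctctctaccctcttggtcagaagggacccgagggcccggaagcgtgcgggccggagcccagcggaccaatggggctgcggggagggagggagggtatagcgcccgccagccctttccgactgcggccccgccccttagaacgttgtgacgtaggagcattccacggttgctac

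The longer GLI motif GACCACCCA was found in 0.225% of the 32851 windows of this length in the RefSeq table and in none of the member windows, while the core CCACCCA was found in 8.11%, both strands searched and every longer match also holding the core. Of the 10 members 6 had a window in that table: Ccnd3, Mycn, Cdkn1a, Cdkn1b, Cdkn2a and Cdkn2b. These genes had 9 windows in all, because Ccnd3, Cdkn1a and Cdkn2a each have a pair of starts there. The core lay before 1 start of each of these 3 genes and not before the other, and none of the 3 genes was called.

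Mycn encodes N-Myc, the Myc family member of many embryonic precursor cells. Its highest probe set, 1417155_at, had 7.35, 7.47 and 7.24 on the Shh arrays, 7.67, 7.66 and 7.49 on the Ihh arrays and 7.59, 7.55 and 7.27 on the Vehicle arrays. Every Shh array lay below every Ihh array, a separation seen for 17.3% of all genes in that comparison, and the Vehicle arrays overlapped both. Shh differed from Ihh by -0.25 ± 0.10 (SE), with a 95% interval of -0.47 to -0.04, which did not pass (limma, unadjusted p = 0.0241, adjusted p = 0.333). Against Vehicle the difference was -0.11 with Shh (limma, adjusted p = 0.563) and 0.14 with Ihh (adjusted p = 0.758). Over both ligands it was 0.01, with an interval of -0.17 to 0.20, and the 3 Mycn probe sets lay between 0.01 and 0.13. For Shh the other Mycn probe sets, 1425922_a_at and 1425923_at, went the other way. Shh differed from Ihh by 0.05 and 0.07 on them, and from Vehicle by 0.04 and 0.16. The last of these had an unadjusted limma p of 0.0428 (adjusted p over all probe sets = 0.272).

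The 250 bases before the Mycn start (RefSeq, GRCm38.p6, chr12:12941837-12942086, minus strand) are shown for their E2F motifs, the letters bound by the factors that retinoblastoma protein restrains. The capitals mark 3 matches to TTTGGCGC or TTTCGCGC on either strand, at 183, 179 and 168 bases before the start, of which the first and the second overlap.
Mycn: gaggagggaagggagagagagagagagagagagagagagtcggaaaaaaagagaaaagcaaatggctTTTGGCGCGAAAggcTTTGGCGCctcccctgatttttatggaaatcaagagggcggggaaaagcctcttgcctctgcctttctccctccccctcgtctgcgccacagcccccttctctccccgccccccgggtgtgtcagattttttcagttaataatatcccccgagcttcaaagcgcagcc

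Such a match was found in 215 of the 32851 windows (0.654%), and 3 or more matches in 2 of them. The motifs were chosen with the sequences in view, and the CACGTG E-box bound by Myc and Max was found in 6.02% of the windows and in none of the member windows.

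Myc itself (1424942_a_at, its single probe set) had 7.97, 7.72 and 7.80 on the Shh arrays, 7.79, 7.72 and 7.79 on the Ihh arrays and 7.86, 7.86 and 7.97 on the Vehicle arrays. The Ihh arrays all lay below the Vehicle arrays, a separation seen for 13.8% of all genes in that comparison, and the Shh arrays overlapped the Vehicle arrays. The Ihh difference was -0.13 (limma, adjusted p = 0.673), and over both ligands it was -0.10, with a 95% interval of -0.24 to 0.04 (adjusted p = 0.548).

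**Figure D3:**
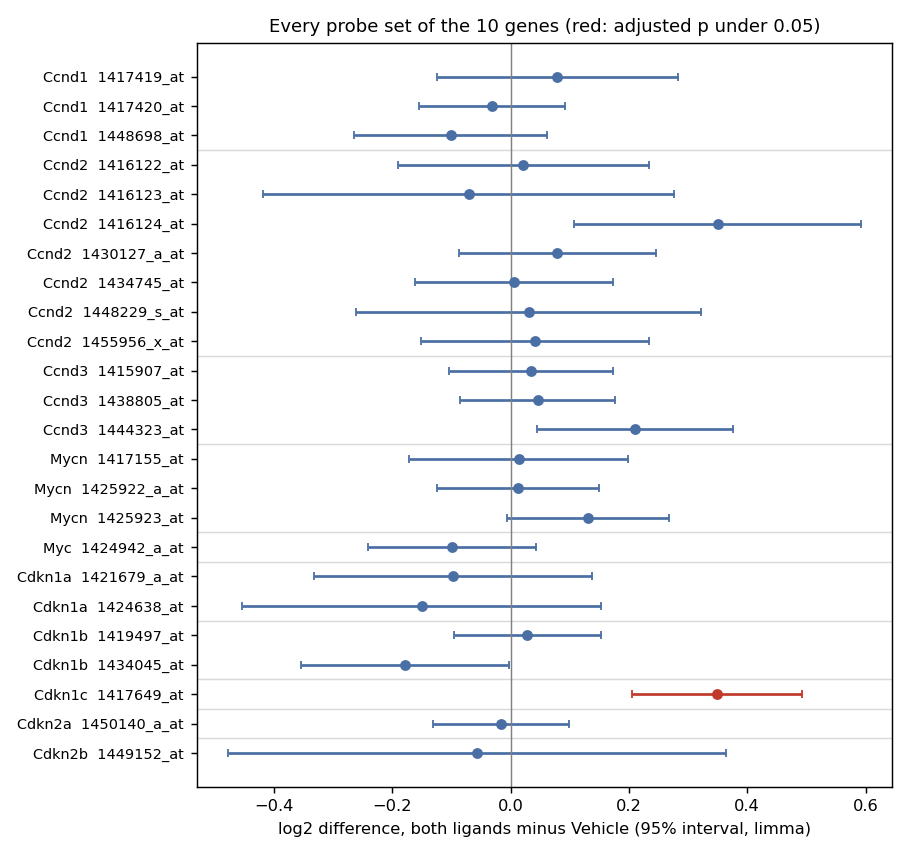
Log2 difference of both ligands minus Vehicle for each of the 24 probe sets of the 10 genes (limma fitted over all probe sets, with the 95% interval); red marks an adjusted p under 0.05. Cdkn1c at 0.35 is the only red point, and the Ccnd2 probe set 1416124_at reaches the same difference with a wider interval.

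The probe sets taken singly gave the same picture for both ligands. Of the 24 probe sets 1 was called, that of Cdkn1c, beside 0.804% of all 45037 probe sets tested, and 4 had an unadjusted limma p under 0.05, beside 12.6% of all. For Shh against Vehicle 0 of the 24 were called, beside 0.946% of all probe sets, and 5 had an unadjusted limma p under 0.05, beside 17.3% of all. With p adjusted over probe sets in this way, Cdkn1c in Shh had an adjusted p of 0.0529. The genes read by several probe sets were 6. Over both ligands the probe sets of Ccnd1, Ccnd2 and Cdkn1b differed in sign among themselves. For Shh against Vehicle those of Mycn and Ccnd3 did so as well.

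Cdkn1b, which encodes the Cip/Kip inhibitor p27 that holds many resting cells in G1, was the member nearest to a fall. Its main probe set, 1434045_at, had 9.33, 9.60 and 9.41 on the Shh arrays, 9.70, 9.71 and 9.53 on the Ihh arrays and 9.79, 9.81 and 9.58 on the Vehicle arrays. Shh 2 lay just above Vehicle 3, and the Shh arrays otherwise lay below the Vehicle arrays. The group means were 9.45 ± 0.13 with Shh, 9.65 ± 0.10 with Ihh and 9.73 ± 0.13 with Vehicle (SD, n = 3 each).

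The Shh difference of Cdkn1b was -0.28 ± 0.09 (SE), with a 95% interval of -0.48 to -0.08 (limma, unadjusted p = 0.0117, adjusted p = 0.145). The Ihh difference was -0.08, with an interval of -0.28 to 0.13 (limma, adjusted p = 0.896), and over both ligands it was -0.18 (adjusted p = 0.354). Shh differed from Ihh by -0.20 (limma, unadjusted p = 0.0499, adjusted p = 0.380). Shh 2 and Vehicle 3 were left out as a pair for their epithelial markers, after the data were seen. They were also the highest Shh and the lowest Vehicle array for Cdkn1b, so their omission had to widen the gap. Without them the Shh difference was -0.43 and passed (limma, adjusted p = 0.0410). In that fit 523 of all genes were called for Shh, beside 314 with all arrays. With single arrays left out, the Shh difference passed in 0 of 9 omissions (limma, lowest adjusted p = 0.0693). A second Cdkn1b probe set, 1419497_at, was dim at 4.48 to 4.68, with a difference of 0.03 over both ligands.

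The mean levels of endothelial markers and of enteric neuron and glia markers went with Cdkn1b. Not every marker did, and endothelial Emcn differed by -0.0057 with Shh. All 8 endothelial markers had differences below 0 over both ligands, from -0.59 to -0.04, with 0 of them called there. An unadjusted limma p under 0.05 was found for 5, beside 13.7% of all genes. Cdh5 was called in Shh (-0.59, limma, adjusted p = 0.0464), beside 1.73% of all genes called. Their mean level relative to Vehicle was -0.49, -0.34 and -0.37 on the Shh arrays, 0.03, -0.14 and -0.44 on the Ihh arrays and 0.09, 0.08 and -0.17 on the Vehicle arrays. The 6 measured markers of enteric neurons and glia followed a like course, at -0.32, -0.25 and -0.20 on the Shh arrays, 0.10, -0.04 and -0.26 on the Ihh arrays and 0.08, 0.04 and -0.12 on the Vehicle arrays, with 0 of the 6 called. Over both ligands 3 of them were lower at an unadjusted limma p under 0.05, and 1 was higher, the receptor gene Ret at 0.31. The part of these cells in the Cdkn1b values was not tested.

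Cdkn1a encodes p21, the Cip/Kip inhibitor induced by p53. Its highest probe set, 1424638_at, had 10.46, 9.86 and 10.48 on the Shh arrays, 10.32, 10.10 and 10.26 on the Ihh arrays and 10.47, 10.18 and 10.53 on the Vehicle arrays. The groups overlapped and Shh 2 was the lowest array. Over both ligands the difference was -0.15, with a 95% interval of -0.46 to 0.16 (limma, adjusted p = 0.717), and the other probe set gave -0.10. The 250 bases before 1 of the Cdkn1a starts (RefSeq, GRCm38.p6, chr17:29090729-29090978, plus strand) are shown because they, too, hold the GLI core, in capitals 80 bases before that start.
Cdkn1a: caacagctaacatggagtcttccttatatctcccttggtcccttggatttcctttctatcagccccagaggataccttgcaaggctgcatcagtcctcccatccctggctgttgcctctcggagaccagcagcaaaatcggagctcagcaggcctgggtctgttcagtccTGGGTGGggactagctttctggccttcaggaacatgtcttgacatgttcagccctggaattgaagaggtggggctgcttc

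Of the INK4 pair, Cdkn2a was dim and Cdkn2b uneven. Cdkn2a (1450140_a_at), whose locus encodes both an INK4 inhibitor and the p53 activator Arf, had 4.13, 4.09 and 4.03 on the Shh arrays, 3.94, 3.997 and 4.02 on the Ihh arrays and 3.98, 4.11 and 4.06 on the Vehicle arrays. These values lay below the median of each array, which was 5.87 to 5.92, so a change in Cdkn2a would be hard to detect here. The Shh arrays lay above the Ihh arrays, a separation seen for 17.3% of all genes in that comparison. The difference was 0.10 (limma, adjusted p = 0.478), and over both ligands it was -0.02 (adjusted p = 0.934).

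Cdkn2b (1449152_at), an INK4 inhibitor that responds to TGF-beta, had 7.47, 6.999 and 8.11 on the Shh arrays, 7.51, 7.44 and 7.19 on the Ihh arrays and 7.61, 7.44 and 7.49 on the Vehicle arrays. The Shh pools held both the highest and the lowest level. The residual SD of Cdkn2b was 0.340, larger than that of 98.4% of all genes, and its difference over both ligands was -0.06, with a 95% interval of -0.49 to 0.37 (limma, adjusted p = 0.944). The 9 epithelial markers, 0 of them called over both ligands by limma and 0 at an unadjusted p under 0.05, had mean levels relative to Vehicle of 0.13, -0.99 and 1.11 on the Shh arrays, 0.54, 0.69 and -0.25 on the Ihh arrays and 0.99, -0.01 and -0.98 on the Vehicle arrays. Shh 2 was thus lowest and Shh 3 highest in both measures, and Vehicle 3, near Shh 2 in epithelial markers, had a Cdkn2b level of 7.49. The part of residual epithelium in Cdkn2b was not tested.

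**Figure D4:**
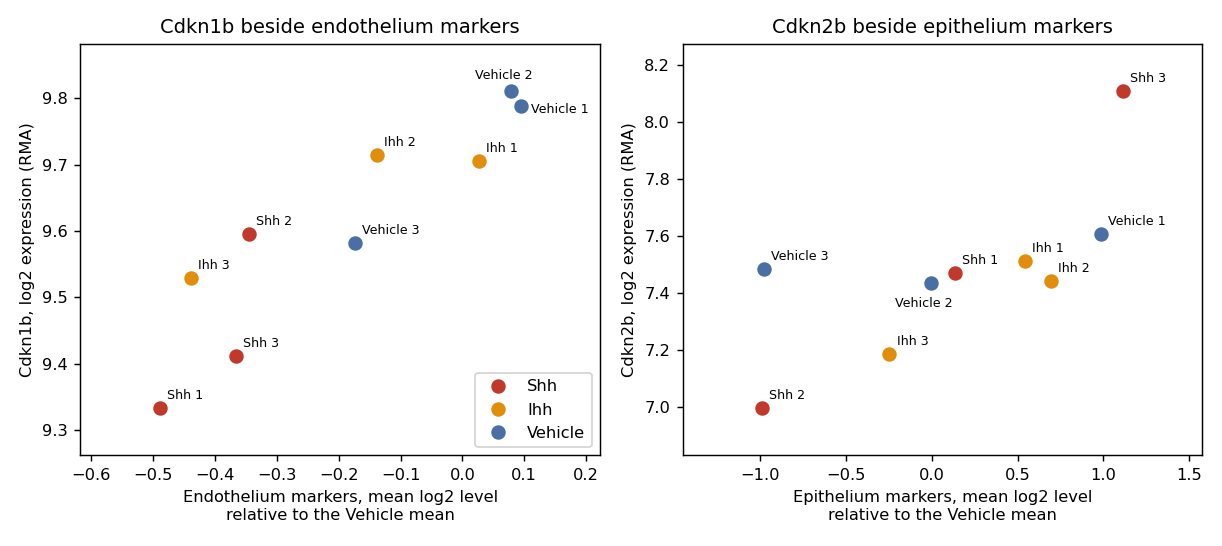
Left, log2 expression of Cdkn1b against the mean log2 level of 8 endothelial markers relative to Vehicle; right, Cdkn2b against 9 epithelial markers; each point is an array, coloured by group. Shh 1 and Shh 3 sit lowest for Cdkn1b at 9.33 and 9.41, with endothelial means of -0.49 and -0.37, and Shh 2 and Shh 3 mark both ends of the Cdkn2b range at 6.999 and 8.11.

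The genes around these regulators were then counted in 5 lists. For both ligands 1.51% of all genes were called, and 13.7% had an unadjusted limma p under 0.05. Of 29 measured genes of the G1 and S phase entry machinery, which includes the D cyclin partners Cdk4 and Cdk6, the Rb and E2F families and cyclins E and A, 0 were called for both ligands and 1 had an unadjusted limma p under 0.05. The list's median difference was 0.03, beside 0.0012 over all genes. Rb1, the retinoblastoma gene, had 8.36, 8.52 and 8.49 on the Shh arrays, 8.76, 8.67 and 8.60 on the Ihh arrays and 8.89, 8.69 and 8.62 on the Vehicle arrays. Its Shh arrays lay below the other groups. Shh and Vehicle arrays lay apart for 20.9% of all genes, and Shh and Ihh arrays for 17.3%. The Rb1 difference from Vehicle was -0.27 with Shh (limma, adjusted p = 0.119) and -0.17 over both ligands (adjusted p = 0.342). Cdkn2c, a further INK4 inhibitor, differed by 0.12 over both ligands (limma, adjusted p = 0.420), and Fbxw7, which marks cyclin E and Myc for degradation, by -0.13 (adjusted p = 0.453).

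Of 24 measured Myc target genes 3 had an unadjusted limma p under 0.05 for both ligands, all lower, beside 13.7% of all genes. Of these 1 was called, and it fell, beside 1.51% of all genes called. Odc1, ornithine decarboxylase, the entry enzyme of polyamine synthesis and a classical Myc target, had 11.32, 11.08 and 11.31 on the Shh arrays, 11.53, 11.43 and 11.27 on the Ihh arrays and 11.70, 11.67 and 11.86 on the Vehicle arrays. All ligand arrays lay below all Vehicle arrays, and the groups lay apart in this comparison for 6.47% of all genes. The difference was -0.42 ± 0.08 over both ligands (SE; limma, adjusted p = 0.0348), -0.50 with Shh (adjusted p = 0.0305) and -0.33 with Ihh (adjusted p = 0.218). All 3 Odc1 probe sets differed in this direction, from -0.49 to -0.18, and all 3 are of types less specific to 1 transcript (_a_at, _x_at). The call for both ligands held in 1 of 9 omissions of an array and ended in 8, with adjusted p up to 0.110 and differences of -0.45 to -0.36. The Shh call held in 3 and ended in 6, with adjusted p up to 0.0929 and differences of -0.55 to -0.42. The median of the list was -0.02.

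Among 12 Myc network partners, the proteins that pair or compete with Myc and Max, 0 were called for both ligands. For both ligands 1 had an unadjusted limma p under 0.05, beside 13.7% of all genes. In Shh 1 was called, and it fell, beside 1.73% of all genes called. Mga, a repressor that pairs with Max, had 9.35, 9.46 and 9.43 on the Shh arrays, 9.89, 9.83 and 9.80 on the Ihh arrays and 9.73, 9.70 and 9.78 on the Vehicle arrays on its highest probe set. The Shh arrays lay below both other groups, where 20.9% of all genes had Shh and Vehicle arrays apart and 17.3% had Shh and Ihh arrays apart. Shh differed from Vehicle by -0.32 (limma, adjusted p = 0.0244) and from Ihh by -0.43 (adjusted p = 0.0880). The Shh call held in 3 of 9 omissions of an array and ended in 6. The 5 Mga probe sets did not move together: 1422646_at differed by 0.60 in Shh against Vehicle, the 3 others by -0.14 to -0.06, and the mean of all probe sets by -0.0018 (limma, adjusted p = 0.989).

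Of 18 measured genes induced by p53, as Cdkn1a also is, 0 were called for both ligands. An unadjusted limma p under 0.05 was found for 5, all lower, beside 13.7% of all genes in either direction. Ddit4, an inhibitor of mTORC1 signalling induced by stress, had 8.30, 8.35 and 8.47 on the Shh arrays, 9.25, 8.50 and 8.30 on the Ihh arrays and 10.06, 9.73 and 8.55 on the Vehicle arrays. Vehicle 3 lay far below the other Vehicle arrays, and the difference over both ligands was -0.91 ± 0.30 (SE; limma, adjusted p = 0.199). Without Vehicle 3 it was -1.36 and passed (limma, adjusted p = 0.00973), and without Vehicle 1 it was -0.61 (adjusted p = 0.581). It passed in 1 of 9 omissions of an array. The death receptor gene Fas differed by -0.22 (limma, adjusted p = 0.220), and the kinase gene Plk2 by -0.21 (adjusted p = 0.222).

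Of 28 measured S phase and mitosis genes 0 were called for both ligands. An unadjusted limma p under 0.05 was found for 2, beside 13.7% of all genes. Differences above 0 were found for 27 of the 28 over both ligands, 27 with Shh and 23 with Ihh. The 28 genes had a median difference of 0.11 over both ligands, 0.17 with Shh and 0.03 with Ihh, beside 0.0012, 0.01 and -0.0086 over all genes. Their mean level relative to Vehicle was 0.31, 0.12 and 0.04 on the Shh arrays, -0.16, 0.10 and 0.20 on the Ihh arrays and -0.08, 0.01 and 0.07 on the Vehicle arrays. The arrays of the 3 groups overlapped, and the counts above 0 were not tested. The replication helicase genes Mcm4 and Mcm5 differed by 0.22 (limma, adjusted p = 0.336) and 0.23 (adjusted p = 0.359), and Pcna, the polymerase clamp gene, by 0.14 (adjusted p = 0.387).

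**Figure D5:**
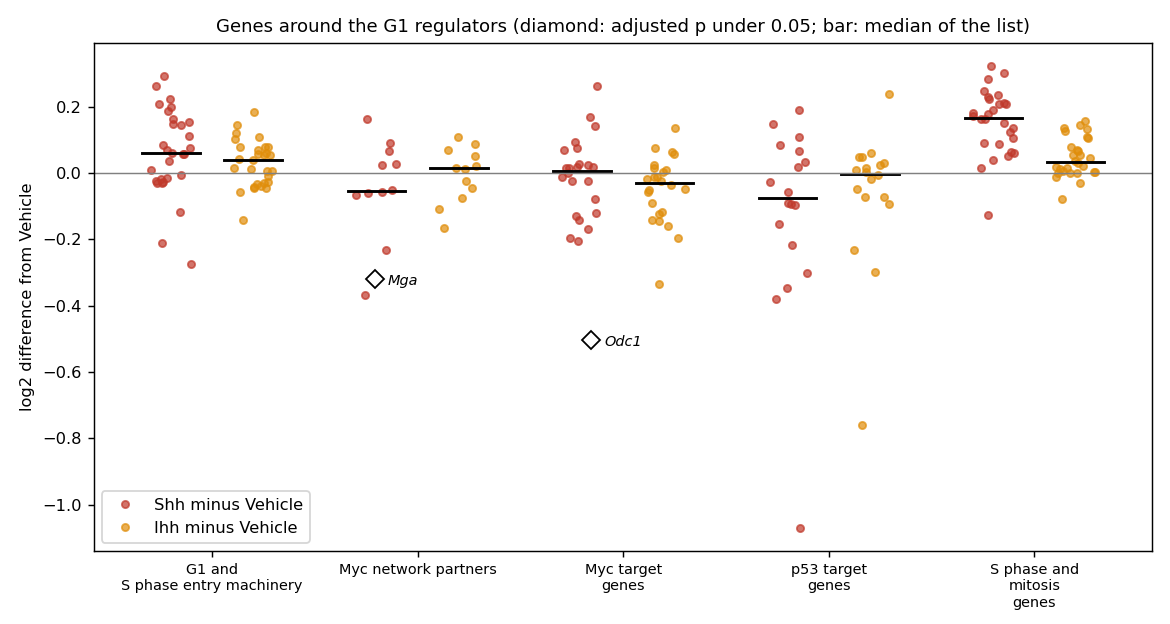
Log2 difference from Vehicle of each measured gene of 5 lists around the G1 regulators, for Shh (red, left of each pair) and Ihh (orange, right of each pair); bars are list medians and diamonds mark an adjusted p under 0.05. Mga at -0.32 and Odc1 at -0.50, both with Shh, are the only diamonds, and the S phase and mitosis genes have medians of 0.17 with Shh and 0.03 with Ihh.

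For the 3 members with the smallest moderated F p over the groups, the genes with the most similar course over the 9 arrays were sought among genes above the median mean level, by Pearson correlation and as a description only. The arrays share their treatment, so genes that respond to ligand resemble each other here. Nearest to Cdkn1c were Flcn (r = 0.958), Sulf2 (r = 0.946) and Zfp871 (r = 0.942). Sulf2, a heparan sulfate endosulfatase gene, rose by 0.36 over both ligands (limma, adjusted p = 0.0280). Nearest to Cdkn1b were Sparcl1 (r = 0.985), Fam43a (r = 0.981) and Ildr2 (r = 0.980), none of them called. Nearest to Mycn were Gdnf, the ligand of enteric neuron precursors (r = 0.965), Zfp24 (r = 0.963) and Iws1 (r = 0.960), also not called.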

How the data were processed

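Biotin-labelled cRNA from 6 ug of total RNA was measured on 9 Affymetrix arrays, 3 each for Shh, Ihh and Vehicle. Each deposited value is the log2 expression of 1 probe set on 1 array, and per the submitters' processing notes the authors used GCOS and RMA (no version is given in the sources used here). RMA sets all arrays to a common distribution and compresses low levels, so a joint shift of every gene is invisible, and the number of arrays limits the precision. Neither batch nor scan date was given in the sources used here. The log2 scale was inferred from values running from 2.78 to 14.20.

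Of the 45101 probe sets, 34945 had 1 gene symbol in the platform annotation, 932 several and 9160 none, and 64 were controls. For each of 18193 genes, the brightest probe set by mean level among those with its symbol alone was used. Means of the 3 groups were fitted with limma 3.58.1 in R 4.3.3 (lmFit, eBayes, 6 residual and 3.88 prior degrees of freedom). P-values were two-sided, with Benjamini-Hochberg adjustment over all genes in each of the comparisons and a threshold of 0.05. The scripts were tested on simulated data. Probe sets were also fitted singly.

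The members, gene lists and motifs were chosen with earlier results of these data known. Named from each list were the genes past the threshold in any comparison (at most 6), or otherwise up to 3 with the smallest p for both ligands. Marker lists of mesenchyme, immune cells, epithelium, endothelium, enteric neurons and glia, mesothelium and red blood cells were counted in the same fit. Of mesenchyme markers 0 of 12, of mesothelium markers 0 of 5 and of red blood cell markers 0 of 3 were called for both ligands. An unadjusted limma p under 0.05 was found for 5, 1 and 0 of them, beside 13.7% of all genes. Alternatives were a replicate block, quantile normalization again, median centring, a filter on genes under the 40th percentile, other choices of probe set, trended and robust eBayes, fits of only the groups compared, and omission of each array. A fit without Shh 2 and Vehicle 3 was added after seeing the data.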

Additional observations from a re-analysis of the deposited data

How the results depend on the processing

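Of 738 recomputed member values, 720 kept their side of the threshold, 17 lost it (all Cdkn1c), 1 gained it and 44 changed sign, none of these past the threshold under either setting. The number of members called for both ligands was 0 to 1 over the omissions of 1 array and 0 without Shh 2 and Vehicle 3. For Shh it was 0 to 1 over the omissions, and 0 when every probe set was tested singly and when only the compared groups were fitted (Cdkn1c adjusted p = 0.0757). Without Shh 2 and Vehicle 3 it was 1, which was Cdkn1b in place of Cdkn1c (adjusted p = 0.0751). The count of Myc target genes for both ligands was 0 to 1 over the omissions, 0 with less specific probe sets left out, when Odc1 has none, and 0 without Shh 2 and Vehicle 3. That of p53 target genes was 0 to 1 over the omissions and 1 without Shh 2 and Vehicle 3. Over the omissions the calls of all genes ranged from 99 to 416 for both ligands, 80 to 675 for Shh, 53 to 229 for Ihh and 1 to 2 for Shh against Ihh. Without Shh 2 and Vehicle 3 they were 523 for Shh, 199 for Ihh and 0 for Shh against Ihh, which was also 0 with only those groups fitted. The cause was not tested.

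The replicate numbers name random pools. Deviations from the group means correlated with r of -0.30 to 0.54 for same-numbered arrays, beside -0.48 to 0.29 for different numbers. Same-numbered Ihh and Vehicle arrays had r of 0.35, 0.23 and 0.54. Those of Shh and Ihh had -0.16, -0.08 and -0.30, and those of Shh and Vehicle had -0.11, 0.14 and -0.16. With the replicate block Cdkn1c had an adjusted p of 0.0278 for both ligands and 0.0332 for Shh (limma), the calls of all genes were 522 for Shh, and no member call changed. Values could not be had for Myc and Cdkn2a without less specific probe sets, nor for Cdkn2a after the filter on dim genes. Fitting only the compared groups is the same fit for both ligands. Dim probe sets, Cdkn2a above all, limit what could be detected.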

Other observations

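The pools differed in Xist, the RNA of the inactive X chromosome, and in the Y-linked gene Eif2s3y. Xist had log2 levels of 11.3, 11.2 and 6.43 on the Shh arrays, 10.0, 10.3 and 10.7 on the Ihh arrays and 10.8, 6.34 and 6.48 on the Vehicle arrays. Eif2s3y had 3.24, 3.17 and 8.44 on the Shh arrays, 8.51, 7.54 and 7.74 on the Ihh arrays and 6.24, 8.66 and 8.98 on the Vehicle arrays. On the 3 arrays lowest in Xist, Cdkn1c was 8.88 in Shh 3 and 8.30 and 8.43 in Vehicle 2 and Vehicle 3. The part of this difference between pools in any result was not tested.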
